A study of Homo sapiens with 9 samples.

Results

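The comparison described here set 3 libraries with the hairpin shG9a_1 against 3 with a scrambled hairpin, shSCR, out of 9 libraries in the series. The 6 libraries were chosen by their labels, and each shG9a_1 library was set against the shSCR library with its own replicate number (1, 2 or 3). All were cultures of MCF10A, an immortalised but non-malignant line of human breast epithelial cells, that carried plasmids for MYC and for the H1047R form of PI3K, so the controls shared both oncogenes. Each culture also held a doxycycline-inducible hairpin plasmid and received 2 µg/mL doxycycline for 72 hours, shSCR cultures included. The other 3 libraries held shG9a_4, a second hairpin against the same gene. They entered the fit and are shown where they show how shG9a_1 differed. The design text calls the 3 replicates of a group biological but ties no number to a day or batch. All cultures were of 1 cell line.

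G9a, encoded by EHMT2, is a histone methyltransferase that places mono- and dimethyl groups on lysine 9 of histone H3, mostly in a complex with its relative GLP, and is known for repressing genes in euchromatin. MYC is a transcription factor that activates growth genes through E-box sites and also represses other genes. The title of the series joins both proteins in transcriptional repression. Short hairpin RNAs are processed to small RNAs that lower the mRNA they match, and a hairpin can also lower or raise other mRNAs.

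Reads in genes numbered 53065611 to 76698004 in the 6 libraries, with 26759 to 28346 genes detected. Levels are in CPM, which are read counts scaled by library size. Replicate number took 41.9% of the sum of squares of expression over the 9 libraries and the hairpin 22.1%. Any grouping of the libraries takes some share, and the share of an arbitrary grouping was not computed. The 22.1% alone therefore does not show an effect of the hairpin. On the second principal component shSCR replicate 1 stood apart from the other libraries. All 13 markers of basal breast epithelium were detected, at a summed 5556 to 7318 CPM in shSCR and 6620 to 8493 CPM in shG9a_1. The sum hides falls: by log2 fold change 10 of the 13 lay above 0 and 3 below, and 1 was called higher. EPCAM was lower in every pair, at 40.6, 19.8 and 69.2 CPM in shSCR and 24.3, 15.95 and 44.9 CPM in shG9a_1. The 10 luminal markers summed to 402 to 480 CPM in shSCR and 431 to 594 CPM in shG9a_1, nearly all of it the keratins KRT8 and KRT18. Of the 5 that were tested (these keratins, GATA3, FOXA1 and ESR1) 4 lay above 0 and none was called. ESR1, which lay above 0, was at 0.139, 0.13 and 0.298 CPM in shSCR and at 0.326, 0.398 and 0.353 CPM in shG9a_1. A gene at such levels can pass the filter on low counts through the group where it is higher. TFF1 was at 0 in all 6 libraries, and PGR, SPDEF, TFF3 and KRT19 did not pass the filter on low counts.

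The promoters shown first belong to EHMT2, PRDX3 and RAB21. These genes and CYLD were the ones that passed the test whichever of the 9 libraries was left out, and these 3 promoters hold the E-box CACGTG that MYC and its partner MAX bind. They were chosen after their values were seen. Each line gives the 250 bases before the start of the gene in RefSeq, 5′ to 3′ on the strand of the gene, with the E-box in capitals. Coordinates are those of GRCh38.p14, another build than that of the count files. The EHMT2 promoter lies at chr6:31897699-31897948 on the minus strand, that of PRDX3 at chr10:119178813-119179062 on the minus strand and that of RAB21 at chr12:71754613-71754862 on the plus strand.
EHMT2: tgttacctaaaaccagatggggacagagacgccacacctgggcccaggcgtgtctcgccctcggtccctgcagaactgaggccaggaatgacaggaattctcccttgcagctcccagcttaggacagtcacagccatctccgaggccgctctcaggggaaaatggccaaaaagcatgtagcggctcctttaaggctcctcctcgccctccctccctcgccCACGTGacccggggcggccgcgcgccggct
PRDX3: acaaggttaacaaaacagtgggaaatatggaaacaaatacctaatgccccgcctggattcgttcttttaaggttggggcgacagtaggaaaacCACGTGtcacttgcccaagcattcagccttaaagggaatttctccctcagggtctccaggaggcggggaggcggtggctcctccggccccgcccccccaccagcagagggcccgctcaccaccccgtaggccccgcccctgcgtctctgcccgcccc
RAB21: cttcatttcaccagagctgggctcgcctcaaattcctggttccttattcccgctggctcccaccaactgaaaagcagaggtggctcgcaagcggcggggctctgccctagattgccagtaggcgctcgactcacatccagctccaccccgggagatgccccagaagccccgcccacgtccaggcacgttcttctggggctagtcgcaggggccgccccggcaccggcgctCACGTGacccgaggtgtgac

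The E-box ended 24 bases before the gene start in EHMT2, 151 bases before it in PRDX3 and 14 bases before it in RAB21. The motif reads the same on both strands. It was also searched in windows that ran 50 bases past the start. Of the 11617 tested genes with such a window, 12.2% held the motif, against 7 of 89 genes called higher (7.87%) and 2 of 17 called lower (11.8%). Among all 35116 windows, 7.26% held it. The share was not larger among the called genes than among the genes tested.

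EHMT2 (ENSG00000204371.11), the target of the hairpin, was at 51.1, 45.2 and 45.4 CPM in shSCR replicates 1 to 3 and at 17.6, 22.6 and 21.03 CPM in shG9a_1. All 3 shG9a_1 libraries lay below all 3 shSCR libraries, and the deepest loss was in replicate 1. The group mean went from 47.3 ± 3.35 to 20.4 ± 2.59 CPM (SD, n = 3 each). This was a fall by 1.21 on the log2 scale, with an SE of 0.11 and an adjusted p of 0.00192 in edgeR's quasi-likelihood test with the replicate block. In shG9a_4 it was at 32.1, 27.2 and 33.5 CPM, between the other groups. Without all 3 libraries of replicate 3 its adjusted p was 0.311, at a log2 fold change of −1.26.

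Of 18435 genes tested, 143 differed between shG9a_1 and shSCR, or 0.776%. Of these 119 were higher in shG9a_1 (0.646%) and 24 lower (0.13%). The test is edgeR's quasi-likelihood F-test with the replicate number as a block, at a Benjamini-Hochberg adjusted p under 0.05, and "rose", "fell" and "called" refer to it throughout. The changes were small: the median log2 fold change was 0.55 over the genes called higher and −0.47 over those called lower, and 107 of 119 and 23 of 24 changed by less than 1 log2 unit. All 143 moved the same way in all 3 pairs, which a test within pairs favours. Over all 18435 genes 3589 were higher and 3620 lower in all 3 pairs. The groups did not overlap in 80 of the 119 and in 22 of the 24, while over all genes 14.7% had groups that did not overlap (7.15% higher and 7.54% lower in shG9a_1). By type, 134 of the 143 were protein-coding genes.

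Without the replicate block 7 genes were called (0.038%), and all of them were among the 143. The count also rested on single libraries. Leaving out the shSCR libraries 1, 2 and 3 in turn gave 4, 43 and 7 called genes. Leaving out those of shG9a_1 gave 26, 238 and 4. Leaving out the shG9a_4 libraries 1, 2 and 3 in turn, which touch only the shared estimate of the spread and of the block, gave 40, 549 and 20. Without the 3 libraries of a replicate number it was 16 (number 1), 1098 (number 2) and 0 (number 3, with 1322 genes at an unadjusted p under 0.05, and no count by another tool was made for that set). The direction of every called gene that is named here was the same under each alternative that gave it a value. The alternatives reuse the libraries that gave the calls, so this is no separate support.

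**Figure D1:**
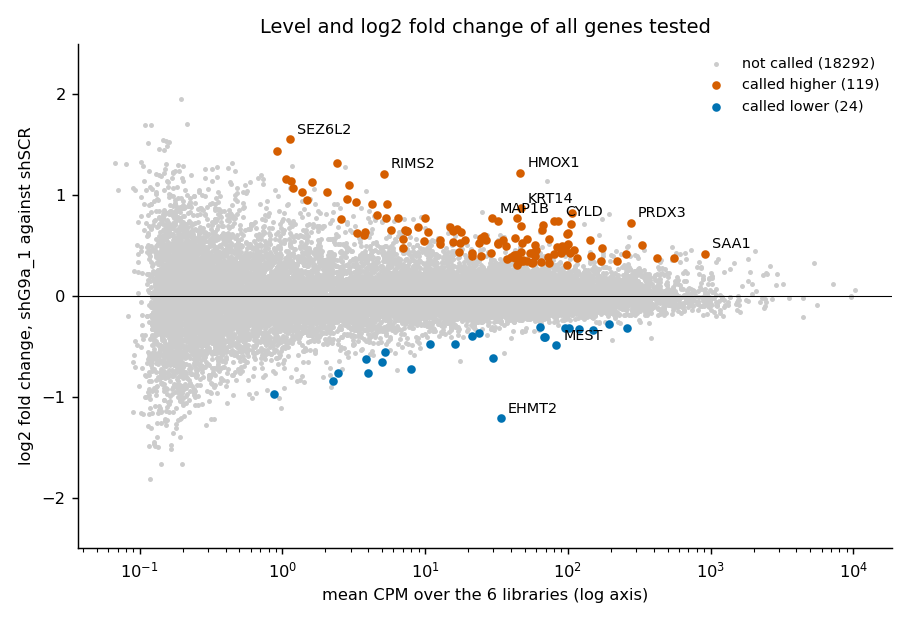
Each point is 1 of the 18435 genes tested, with its mean CPM over the 6 libraries on a log axis and its log2 fold change in shG9a_1 against shSCR. The 119 genes called higher (orange) and 24 called lower (blue) lie near the edge of the cloud at every level, and most changed by less than 1 log2 unit.

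The genes called with and without the block were EHMT2 and 6 genes that rose, of which 5 are described. PRDX3, a peroxiredoxin that removes hydrogen peroxide in mitochondria, was at 197, 229 and 198 CPM in shSCR and at 355, 346 and 330.1 CPM in shG9a_1. No library of one group reached the other, and PRDX3 rose by 0.73 log2 units with an SE of 0.07 (edgeR adjusted p = 0.00192). RAB21, which guides integrins through early endosomes as a small GTPase, was at 81.1, 83.7 and 73.7 CPM and at 138, 130.4 and 123 CPM. All shG9a_1 libraries lay above all shSCR libraries, and the rise was 0.72 log2 units with an SE of 0.06 (edgeR adjusted p = 0.00122).

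TRIM37, a ubiquitin ligase that acts at centrosomes and on histone H2A, was at 47.4, 53.2 and 52.7 CPM in shSCR and at 80.5, 77.9 and 82.0 CPM in shG9a_1. ANO6, a calcium-activated lipid scramblase of the plasma membrane, was at 80.7, 84.9 and 81.8 CPM and at 122, 113 and 119.5 CPM. Both genes rose, by 0.65 (SE 0.07) and 0.52 (SE 0.06) on the log2 scale, and neither overlapped between groups. CCDC25, a membrane protein that binds DNA outside the cell, was at 49.8, 48.4 and 47.9 CPM and at 73.8, 67.2 and 67.3 CPM. It rose by 0.51 log2 units with an SE of 0.06 (edgeR adjusted p = 0.00769 with the block and 0.0301 without it), and its groups did not overlap.

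CYLD, a deubiquitinase that restrains NF-kB signalling, was at 59.2, 71.2 and 60.3 CPM in shSCR and at 112, 109.8 and 96.0 CPM in shG9a_1. It rose by 0.74 on the log2 scale (edgeR adjusted p = 0.00204, SE 0.07) with no overlap, and without the block its adjusted p was 0.0794.

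**Figure D2:**
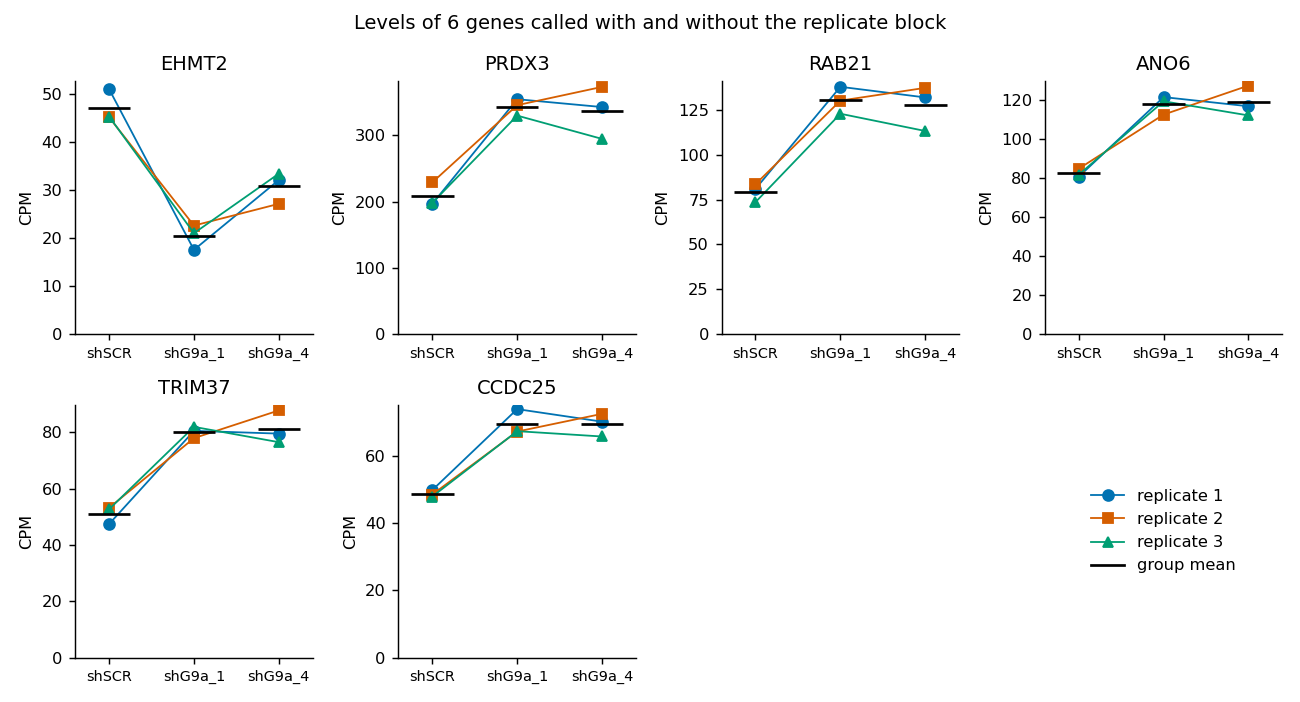
CPM of 6 genes called with and without the replicate block, in each of the 9 libraries, with lines joining libraries of the same replicate number and black bars at the group means. EHMT2 was lowest in shG9a_1, and the means of PRDX3, RAB21, ANO6, TRIM37 and CCDC25 were about as high in shG9a_4 as in shG9a_1.

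The largest rises were mostly in genes of low level, with HMOX1, described further on, as the exception. SEZ6L2, a neuronal membrane protein, was at 0.54, 0.637 and 0.522 CPM in shSCR and at 1.29, 2.33 and 1.45 CPM in shG9a_1. It rose by 1.56 log2 units with an SE of 0.23 (edgeR adjusted p = 0.0206). AZGP1, a secreted glycoprotein of luminal and apocrine cells that is linked to lipid breakdown, rose from a mean of 0.502 to 1.34 CPM, or by 1.44 log2 units with an SE of 0.20. KRT34, a hair keratin, was at 0.896, 1.82 and 1.36 CPM in shSCR and at 3.92, 2.55 and 3.86 CPM in shG9a_1. All 3 genes were higher in every shG9a_1 library than in any shSCR library. CDH16, a cadherin of kidney epithelium, PTHLH, which encodes a hormone-like protein of epithelia that acts on bone and mammary development, and BEX1, a neuronal adaptor protein, rose by 1.16, 1.14 and 1.10 on the log2 scale. CRISPLD2, a secreted protein, rose by 1.03 with groups that overlapped, and the antisense transcript AC099066.2 by 1.03.

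EHMT2 itself led the falls, and most other large falls were in genes of low level. B4GALNT3, a glycosyltransferase, was at 1.41, 0.974 and 1.12 CPM in shSCR and at 0.669, 0.561 and 0.538 CPM in shG9a_1. COCH, an extracellular matrix protein of the inner ear, fell by 0.84 on the log2 scale and CLCN2, a chloride channel, by 0.73. SNORD13, a small nucleolar RNA that guides acetylation of ribosomal RNA, went from 5.01 to 2.94 CPM, LINC02381, a long non-coding RNA, from 6.06 to 3.84 CPM, and MYB, a transcription factor of progenitor cells, from 4.69 to 3.03 CPM. The groups did not overlap in any of these 6 genes. The lincRNA AL360012.1 fell by 0.56.

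**Figure D3:**
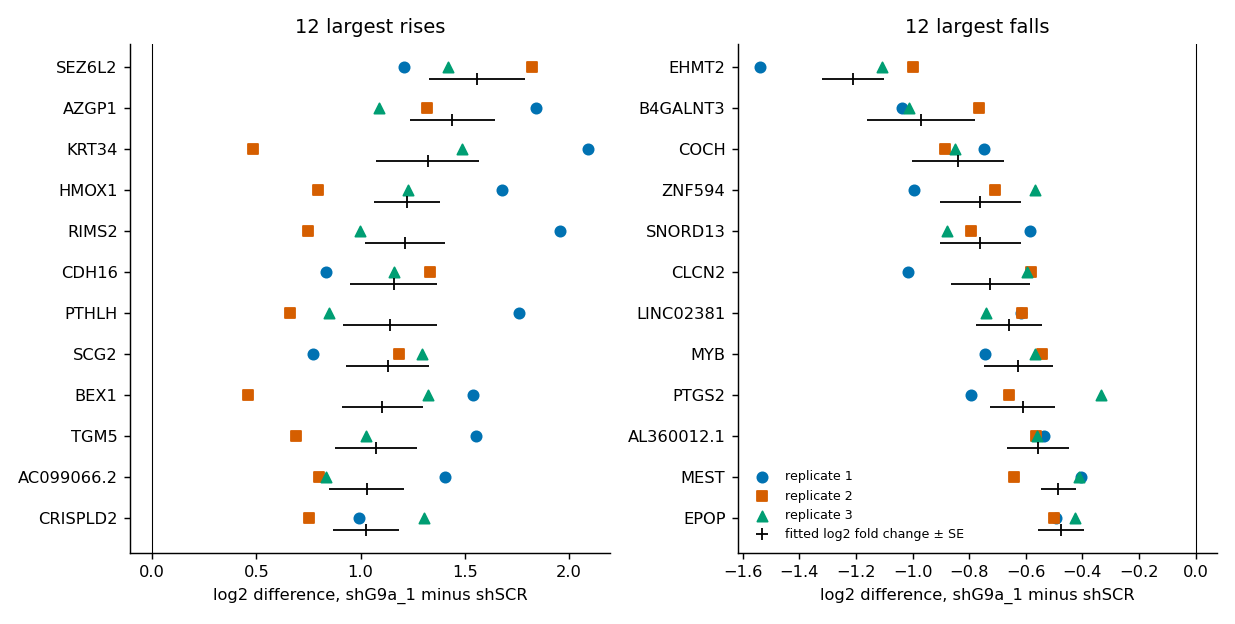
Log2 difference within each pair of equal replicate number for the 12 largest rises (left) and falls (right), one marker per replicate, with the fitted log2 fold change and its SE in black just below. All points of a gene lie on the same side of 0, which the naming rule required. KRT34, RIMS2, HMOX1, PTHLH, BEX1 and TGM5 rose most in replicate 1 and least in replicate 2.

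PRDX3, described above, and HMOX1 were among the genes of oxidant defence that rose. Of 40 tested NRF2 and antioxidant genes, which detoxify peroxides and reactive compounds, 4 rose, none fell, 35 lay above 0, and the median log2 fold change was 0.12, against 9287 of 18435 above 0 and a median of 0.00 over all genes. HMOX1, which encodes the inducible heme oxygenase, was at 27.9, 17.8 and 33.6 CPM in shSCR and at 89.3, 31.0 and 78.7 CPM in shG9a_1. The groups overlapped, since shG9a_1 replicate 2 lay below shSCR replicate 3, but HMOX1 was higher within every pair, by 1.68, 0.80 and 1.23 log2 units. The rise was 1.22 log2 units with an SE of 0.16 (edgeR adjusted p = 0.0107 with the block and 0.607 without it).

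AKR1C3, an aldo-keto reductase of steroids and prostaglandins, was at 76.7, 65.6 and 93.5 CPM in shSCR and at 155, 94.0 and 119 CPM in shG9a_1. ABCC2, an export pump for conjugated compounds, was at 377, 318 and 399 CPM and at 538, 411 and 476 CPM. They rose by 0.63 (SE 0.10) and 0.38 (SE 0.07) on the log2 scale, with groups that did not overlap. SOD2, the mitochondrial superoxide dismutase, had a mean of 1748 CPM in shSCR and 2359 CPM in shG9a_1 with an adjusted p of 0.0816 in edgeR, and FTH1, the ferritin heavy chain, had 3078 and 3346 CPM with an adjusted p of 0.571.

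Of 50 tested genes of PI3K, AKT and mTORC1 signalling, 2 rose and none fell, while 0.646% of all genes rose. In this list 30 lay above 0 and 20 below. Groups did not overlap in 14% of it, against 14.7% over all genes. The fitted median was 0.04, and the median within replicate 1 was −0.06. Leaving out a library moved the fitted median to 0.02 (shSCR replicate 3) and to 0.06, 0.0065 and 0.0067 (shG9a_1 replicates 1, 2 and 3). PIK3CA, the catalytic subunit of PI3K, was at 125, 165 and 144 CPM in shSCR and at 188, 221 and 196 CPM in shG9a_1. Its counts cannot separate the cell's own gene from an ectopic copy. RHEB, the small GTPase that switches on mTORC1, was at 77.1, 87.0 and 78.2 CPM and at 117, 114 and 111 CPM. Both rose with no overlap, by 0.48 (SE 0.06) and 0.50 (SE 0.06) on the log2 scale. STAT3, a transcription factor of cytokine signals, was at 204, 183 and 199.7 CPM and at 249.7, 248 and 249 CPM, and rose by 0.35 (SE 0.06, adjusted p = 0.0337 in edgeR).

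KRT14 and KRT16, keratins of the basal and of the stressed epidermis, rose. Of 29 tested basal epithelial and hemidesmosome genes 2 rose and none fell, while 0.646% of all genes rose. In this list 25 lay above 0 and the median was 0.24 (0.15 without shSCR replicate 1). The groups overlapped in every gene of it, while over all genes 14.7% had groups that did not overlap. KRT14, the keratin of basal cells, was at 32.6, 19.8 and 47.9 CPM in shSCR and at 54.5, 40.4 and 85.6 CPM in shG9a_1. Its groups overlapped, yet the pairs differed by 0.74, 1.03 and 0.84 log2 units, and it rose by 0.87 (SE 0.10, adjusted p = 0.00576 in edgeR with the block and 0.633 without). KRT16, a keratin of wounded and proliferating epidermis and a close neighbour of KRT14 on the genome, rose by 0.71 (SE 0.13), also with overlap. KRT5 and KRT6A, at 2353 and 1582 CPM in shSCR, had adjusted p-values of 0.132 and 0.13 in edgeR. Of 28 tested epidermal differentiation genes 25 lay above 0, with a median of 0.25 (0.16 without shG9a_1 replicate 1), and only TGM5, a transglutaminase of the cornified envelope, rose.

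Of 73 listed neuronal genes 31 passed the filter on low counts. Among these 31, 5 rose and none fell, while 0.646% of all genes rose. In this list 26 lay above 0, against 9287 of 18435 over all genes, and the median was 0.22 (0.34 without shSCR replicate 3). SEZ6L2 and RIMS2 were known to rise when the list was written, so the list is not independent of these data. MAP1B, a microtubule protein of axons, was at 14.1, 24.1 and 27.6 CPM in shSCR and at 28.9, 32.3 and 50.6 CPM in shG9a_1. It rose by 0.77 log2 units with an SE of 0.10 (edgeR adjusted p = 0.0118). RIMS2, which docks synaptic vesicles, was at 1.84, 3.26 and 4.27 CPM and at 7.23, 5.50 and 8.56 CPM. In both genes every shG9a_1 library lay above every shSCR library, with the pairs furthest apart in replicate 1. SCG2, a granin of secretory vesicles, and L1CAM, an adhesion protein of axons and migrating tumour cells, rose by 1.13 (SE 0.20) and 0.64 (SE 0.13). MAP2, a microtubule protein of dendrites, had means of 50.4 and 76.8 CPM with an adjusted p of 0.0708 in edgeR, and REST, the repressor of neuronal genes, had 101 and 106 CPM with 0.634.

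Of 48 tested NF-kB factors and inflammatory targets, 2 rose and 1 fell, while 0.646% of all genes rose and 0.13% fell. In this list 41 lay above 0 and the median was 0.26. Groups did not overlap in 10.4% of it, against 14.7% over all genes. SAA1, an acute-phase protein, was at 745, 933 and 667 CPM in shSCR and at 1036, 1245 and 857 CPM in shG9a_1, with overlap between the groups, and rose by 0.42 (SE 0.07). CYLD, described above, is an inhibitor in this list. PTGS2, the inducible prostaglandin synthase, moved the other way, from 56.1, 41.1 and 13.95 CPM to 32.4, 26.02 and 11.1 CPM, and fell by 0.61 on the log2 scale (SE 0.12). It was lowest in replicate 3 of both groups, and the groups overlapped. PLA2G4A, a phospholipase that releases the substrate of PTGS2 and adjoins it on the genome, was called lower too and is named for that position, after its value was seen.

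Of 55 interferon-stimulated genes 43 lay above 0 with a median of 0.17, and only GBP3, an interferon-induced GTPase, rose, by 0.55 (SE 0.11). Of 21 HLA class I antigen presentation genes 20 lay above 0 with a median of 0.14 (0.096 without shG9a_1 replicate 2), and none was called.

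Genes reported as repressed by MYC lay mostly above 0 and those reported as activated by it mostly below. Of 57 tested MYC-repressed genes 48 lay above 0 with a median of 0.17, and 2 rose: JUN, a subunit of the AP-1 transcription factor, at 14.4, 15.4 and 16.2 CPM in shSCR and 20.6, 22.4 and 25.1 CPM in shG9a_1, and S100A10, a partner of annexin A2, with a log2 fold change of 0.35 (SE 0.06). Of 70 MYC-activated genes 62 lay below 0 with a median of −0.10 (−0.06 without shSCR replicate 2), and none was called. NPM1, a nucleolar protein of that list, had means of 4732 and 4113 CPM with an adjusted p of 0.275 in edgeR. MYC reads, which include those of the ectopic plasmid, came to 186, 169 and 204 CPM in shSCR and to 172, 175 and 199 CPM in shG9a_1, with groups that overlapped and a log2 fold change of −0.03 (SE 0.08) that changed sign under 3 alternatives. Of 73 ribosome biogenesis genes 67 lay below 0 (median −0.08, and −0.03 and −0.02 without replicate 2 of shSCR or of shG9a_1) and of 60 DNA replication and G1/S genes 55 (median −0.12), with none called in either list.

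Among 45 tested p53 targets 38 lay above 0 with a median of 0.13 (0.08 without shSCR replicate 1), and TP53I3, a quinone oxidoreductase, rose from 60.1 ± 10.6 to 88.4 ± 5.36 CPM (SD, n = 3 each). The medians of several lists were largest in the first pair. Within replicates 1, 2 and 3 the median log2 difference of the NF-kB list was 0.38, 0.11 and 0.14, that of the p53 targets 0.27, 0.08 and 0.04, and that of 49 replication-dependent histone genes −0.40, −0.09 and −0.02. The neuronal medians were 0.19, 0.30 and 0.25 and the interferon medians 0.12, 0.20 and 0.14. Over genes with at least 1 CPM the SD of the differences was 0.305, 0.244 and 0.214 in the 3 pairs. Of the libraries of replicate 1, leaving out that of shSCR moved the p53 median to 0.08. Leaving out that of shG9a_1 moved the histone median to −0.0071. Why the first pair differed was not tested.

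**Figure D4:**
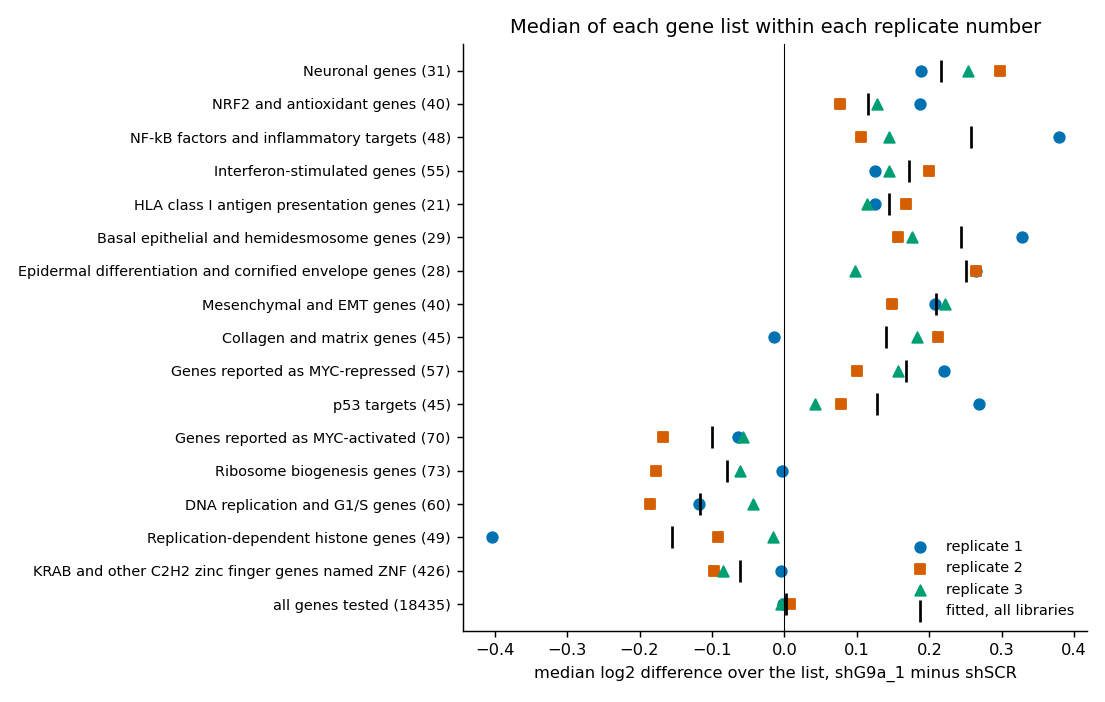
Median log2 difference between shG9a_1 and shSCR over the tested members of each list (their number in brackets), within each replicate number (coloured markers) and as fitted over all libraries (black bars), with all genes tested in the bottom row. The NF-kB, p53 and histone lists lie furthest from 0 in replicate 1, and the neuronal and interferon lists do not.

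The lists of matrix and mesenchymal genes held 3 rises. TNC, a matrix protein of wounds and tumours, rose by 0.60 (SE 0.11), FBN1, the fibrillin of microfibrils, by 0.52 (SE 0.10) and COL8A1, a short-chain collagen, by 0.69 (SE 0.13). Of the 40 mesenchymal genes tested 33 lay above 0 (median 0.21), and of the 45 collagen and matrix genes 38 (median 0.14, with 0.21 and 0.05 without shG9a_1 replicates 1 and 2). The collagen and matrix median was −0.01, 0.21 and 0.18 within replicates 1, 2 and 3. Groups did not overlap in 6.67% of that list, against 14.7% over all genes. COL8A1 groups did not overlap, while those of TNC and FBN1 did. Of 11 fibroblast markers 7 were tested, 7 of 7 lay above 0 and none was called, and 4 were higher in all 3 pairs. The 11 markers summed to 192 to 376 CPM in shSCR and 243 to 468 CPM in shG9a_1. Most of that sum was DCN, a matrix proteoglycan. FAP, PDPN, LUM and COL1A1 were above 1 CPM in all 6 libraries, and the other 6 (COL1A2, COL3A1, PDGFRA, PDGFRB, THY1 and POSTN) were under 1 CPM in all of them. Endothelial markers summed to 1.68 to 2.26 and 2.28 to 3.18 CPM, with CLDN5 and TIE1 at 0, and leukocyte markers to 6.78 to 15.7 and 7.52 to 26.9 CPM, with PTPRC under 1 CPM in all 6 libraries. The leukocyte sum was mostly HLA-DRA in replicates 1 and 2 and mostly CD14 in replicate 3 of both groups. In bulk RNA a change in the number of cells of a type and a change in RNA per cell cannot be told apart.

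Of 24 tested genes of the G9a complex and of other H3K9 methylation, EHMT2 alone was called. EPOP, which attenuates Polycomb repressive complex 2, was at 19.7, 18.4 and 18.7 CPM in shSCR and at 13.98, 13.03 and 13.92 CPM in shG9a_1. It was the 1 called gene among 12 Polycomb genes and fell by 0.47 (SE 0.08, adjusted p = 0.0383 in edgeR) with narrow, separate groups. MEST, an imprinted gene of the hydrolase family, was at 103, 96.3 and 91.2 CPM and at 78.2, 61.7 and 68.6 CPM. It fell by 0.49 (SE 0.06, adjusted p = 0.0108) and was the 1 called gene among 27 imprinted genes. Of 49 tested histone genes 45 lay below 0 with a median of −0.15, which leaving out a library moved to −0.08 and −0.24 (replicates 2 and 3 of shSCR) and to −0.0071 and −0.29 (replicates 1 and 2 of shG9a_1). H1-1, a linker histone, and H4C3, a copy of histone H4, fell by 0.40 (SE 0.07) and 0.28 (SE 0.06).

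Zinc finger genes named ZNF, many of which are KRAB repressors that recruit H3K9 methylation, lay more often below 0: 292 of 426, with a median of −0.06. Their median was −0.005, −0.10 and −0.08 within replicates 1, 2 and 3. ZNF594 alone was called, from 3.12, 2.48 and 3.60 CPM to 1.55, 1.51 and 2.41 CPM. Of 66 germline and cancer-testis genes, which are silent in most somatic cells, 11 passed the filter on low counts and none was called. Of 33 clustered protocadherin genes tested none was called either.

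Other abundant called genes were ACSL4, which activates arachidonic acid for phospholipids, UGP2, which makes UDP-glucose, and SIPA1L2, a GTPase-activating protein, with rises of 0.38, 0.51 and 0.42 on the log2 scale. SNHG1, a non-coding host gene of small nucleolar RNAs, was at 288, 262 and 313 CPM in shSCR and at 238, 216 and 237 CPM in shG9a_1, and ZHX1, a transcriptional repressor, at 169, 169 and 162 CPM and at 132, 132 and 131 CPM. Both fell, by 0.32 (SE 0.06) and 0.34 (SE 0.06), with no overlap. LTBP1, which stores latent TGF-beta in the matrix, rose by 0.42 and MTHFD2L, a mitochondrial folate enzyme, by 0.33.

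The second hairpin was compared with shG9a_1 directly, to show where the 2 hairpins differed. By edgeR's quasi-likelihood test with the block 0 of 18435 genes differed (0.0%), with 1619 at an unadjusted p under 0.05. DESeq2 called 95 and edgeR's likelihood ratio test 114. Both hairpins were set against the same 3 shSCR libraries, so their values against shSCR are given side by side without a test of their likeness. PRDX3 had log2 fold changes of 0.73 in shG9a_1 and 0.69 in shG9a_4, RAB21 0.72 and 0.68, TRIM37 0.65 and 0.67, PIK3CA 0.48 and 0.46 and STAT3 0.35 and 0.35. HMOX1 had 1.22 and 0.25, MAP1B 0.77 and −0.08, KRT34 1.32 and −0.24, CRISPLD2 1.03 and −0.19 and CLCN2 −0.73 and 0.01. The direct differences of MAP1B (0.86, SE 0.10, adjusted p = 0.065) and CRISPLD2 (1.22, adjusted p = 0.065) missed the threshold in edgeR, as did EHMT2 at −0.60 (SE 0.11, adjusted p = 0.20). Over the 119 genes called higher, 26 differed by at most 0.1 log2 units between the hairpins and 21 by more than 0.5. Of the 119, 108 were higher in shG9a_1 than in shG9a_4. Their median log2 fold change against shSCR was 0.55 in shG9a_1 and 0.25 in shG9a_4, and 12 were called in shG9a_4. The share of all genes called in shG9a_4 is not given here, so this 12 cannot be read as many or few. The 119 genes were picked for their change in shG9a_1, which favours larger values there.

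**Figure D5:**
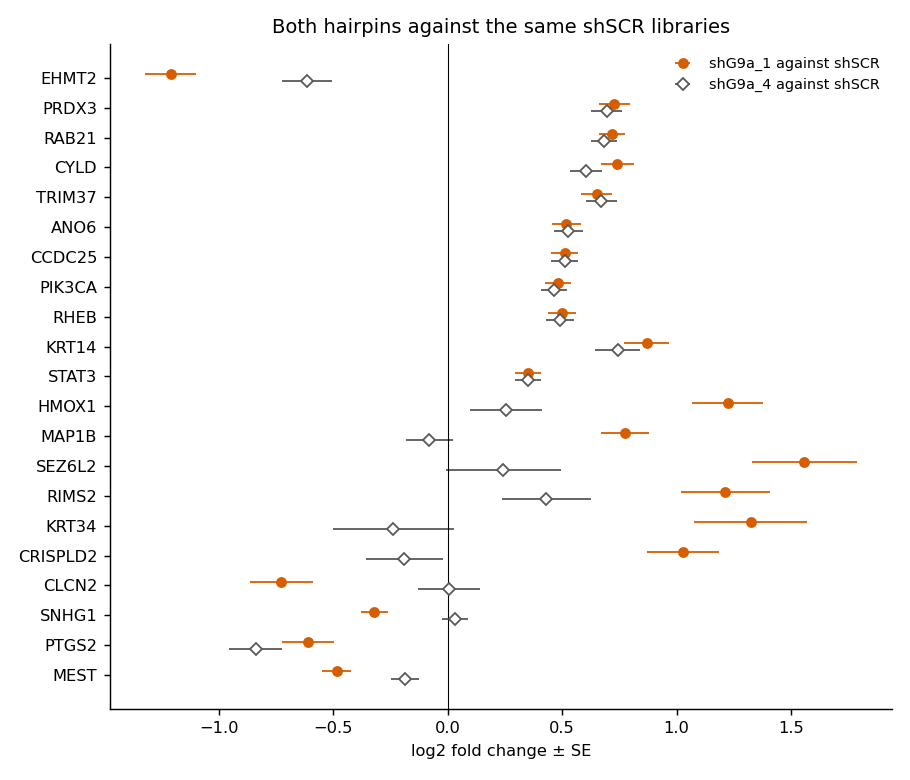
Log2 fold change with its SE for 21 genes called in shG9a_1, in shG9a_1 (orange circles) and shG9a_4 (open diamonds), each against the same 3 shSCR libraries. The genes and their order were chosen after their values were seen. From PRDX3 to STAT3 the hairpins differ by at most 0.14 (CYLD). In shG9a_4 HMOX1 and SEZ6L2 lie at 0.25 and 0.24 and MAP1B, KRT34 and CRISPLD2 just below 0.

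The authors' deposited table for this comparison gives each gene a posterior probability of different expression (PPDE) and a linear fold (RealFC). Of 10748 rows with values in the authors' deposited table, 322 had a PPDE of at least 0.95, 124 with a fold above 1 and 198 below. Of those 322, 311 were tested here and all 311 had the same direction, and 10.3% of them were called. Both sets of values are for the same comparison in this series, so the shared direction is no separate support. From the other side, 82 of the 143 called genes were in the authors' deposited table and 32 of them (39.0%) had a PPDE of at least 0.95. HMOX1 had a PPDE of 0.0595 and a fold of 2.48 in the authors' deposited table, and RIMS2 had 0.996 and 2.26.

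By position, 3 pairs of called genes were next neighbours among 12919 tested coding genes placed in RefSeq order. They were PTGS2 with PLA2G4A, both lower, and KRT14 with KRT16 and ADAM12 with C10orf90, both higher in each pair. ADAM12 and C10orf90 are named for their position, after their values were seen.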

How the data were processed

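Per the labels' protocols, total RNA freed of ribosomal RNA was sequenced in stranded libraries, with 75 bases from each end. The authors deposited whole-number counts of reads per gene for each library, in the layout that STAR writes. Per the submitters' processing notes the build was GRCh37 (hg19) and the tools included R 3.3.1, edgeR 3.14.0, DESeq and STAR 2.5.2a, whose roles are not stated. The authors deposited, per the file headers, a table with a PPDE score and a linear fold ratio, made by a tool that the sources used here do not name. That counting keeps only reads that map to 1 place, so genes with close copies are uncertain: PRDX3, RHEB, PIK3CA, KRT14, KRT16, KRT34, SAA1, AKR1C3, H1-1 and H4C3.

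Reverse-strand counts were used (94.7 to 95.1% of stranded reads). Lines that name no gene were left out: read pairs without a feature (12.2 to 15.4%), in several genes (2.49 to 2.68%), mapping to several places (4.57 to 5.49%) or unmapped (2.75 to 4.34%). Symbols came from a gene name table (40308 of 60308 IDs) and from GENCODE 29 (15390). The test, on genes that passed filterByExpr, was that of edgeR 4.0.16 under R 4.3.3 (quasi-likelihood F-test, TMM scaling, two-sided, Benjamini-Hochberg over all genes, threshold 0.05), in a fit of all 9 libraries with the replicate number as a block and 4 residual degrees of freedom. Same-numbered libraries deviated together from their groups (correlations of 0.178 to 0.461 over 9 pairs). No such values are given for libraries of different number. These correlations alone therefore do not show that the numbers pair the libraries. The labels do not say what a number shares. If the cultures were not separate, p-values measure only the spread between these samples. No replicates were duplicates (chi-square per degree of freedom 25.2 to 37.9). The scripts were tested on simulated data.

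The comparison, gene lists and naming rule were chosen with earlier results of these data known. The rule named EHMT2, the 12 largest rises and falls with a mean of at least 1 CPM in shSCR or shG9a_1 and the same direction in all pairs, the 12 most abundant called genes, genes called in both fits, and from each list its called genes, its 3 most abundant and its largest change. Not all genes under the rule are printed, and some items are not reported here. Lists had no test of their own. Alternatives were DESeq2 1.42.0, limma-voom 3.58.1, the likelihood ratio test, other scaling, filter and strand, 6 libraries, no block, and left-out libraries.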

Additional observations from a re-analysis of the deposited data

How the results depend on the processing

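For shG9a_1 against shSCR, 143 genes were called (119 higher, 24 lower) with the replicate block. Without the block there were 7 (6 higher, 1 lower), with DESeq2 440 (358 and 82), with the likelihood ratio test 542 (427 and 115) and without a filter 815 (650 and 165). Leaving out a library, or all 3 of a replicate number (added after seeing the data), gave 0 to 1098 genes, 0 to 835 higher and 0 to 263 lower. The count was 163 with the 6 libraries only, 144 with other size factors, 133 with voom and 138 with unstranded counts. Between the hairpins 0 genes were called, 95 with DESeq2, 114 with the likelihood ratio test, 381 without a filter, 3 with unstranded counts and 0 to 437 with libraries left out. EHMT2 stayed between −1.36 and −1.05 with libraries left out and lost its call without replicate 3 (−1.26). Of the genes under the naming rule, 0 of 57 called ones changed sign under any alternative, while 53 of 160 uncalled ones did. The called ones were picked on the same libraries, so this contrast is no separate support. Among those in the text, MYC ranged from −0.12 to 0.03 with libraries left out: 0.025 without shG9a_1 replicate 1, 0.0099 without shG9a_1 replicate 3 and 0.012 without replicate 1. The causes were not tested.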
